A study of Mus musculus with 12 samples.

Results

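Most genes described here encode protein components of the spliceosome, and 5 encode Lsm proteins that work outside it (6 probes, counted as members throughout). They were taken from an array of 41174 probes by gene name: probes named Sf3a, Sf3b, Snrp, Sfrs, Srsf, Prpf or Lsm followed by the member's number or letter, U2af, Magoh or Rbm8a, without the imprinted gene Snrpn. This gave 129 probes for 68 of the array's 27962 gene names, measured in all 12 cells of the study. The rule uses names only and no measured value. The array carries older names, so Sfrs5 is now Srsf5, Snrp70 is Snrnp70 and Snrp1c is Snrpc.

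The cells were single blastomeres of 2-cell mouse embryos. Embryos came from CF-1 females mated naturally with CF-1 males and were flushed from the oviduct 36 h post coitus; the labels give no treatment and no genetic change for any group. Both blastomeres of an embryo were squeezed out through a slit in the zona pellucida, and the RNA of each was amplified in 2 rounds and hybridised to its own array. Experiment 1 held the blastomere pairs D, I and L, experiment 2 the pairs D, G and H, and the cells of a pair are numbered 1 and 2, with no account of what the numbers stand for. Pair D of experiment 1 and pair D of experiment 2 are different embryos. The labels do not say whether embryos of an experiment came from different females, so p-values measure only the spread between these samples.

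The spliceosome removes introns from new transcripts. It is built from small nuclear ribonucleoprotein particles (snRNPs), each a small nuclear RNA inside a ring of Sm or Lsm proteins with further proteins of its own: U1 reads the start of the intron, U2 with the help of U2AF reads the branch point and the end, and U4, U5 and U6 join as a tri-snRNP before catalysis. SR proteins bind exons and recruit these particles, and the exon junction complex is left on the spliced message. In the mouse the late 2-cell stage is the time of the main wave of embryonic transcription, when new messages begin to replace those stored in the egg.

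The sequences in front of the transcription start are shown for 4 of the 9 members that were higher in experiment 2, those with 1 annotated start and a match to a motif of the ETS or NRF1 family of transcription factors. The RefSeq promoter table of build GRCm38.p6 held 58 of the 69 current symbols of the members, in 72 windows. Each sequence runs 5′ to 3′ on the gene's strand over the 250 bases before the start. Capitals mark the ETS letters CCGGAAG or the NRF1 letters GCATGCGC, searched on both strands. The windows are chr6:86371290-86371539 (plus strand) for Snrpg, chr17:27839837-27840086 (plus) for Snrpc, chr7:45395743-45395992 (minus) for Snrnp70 and chr12:80945249-80945498 (plus) for Srsf5.
Snrpg: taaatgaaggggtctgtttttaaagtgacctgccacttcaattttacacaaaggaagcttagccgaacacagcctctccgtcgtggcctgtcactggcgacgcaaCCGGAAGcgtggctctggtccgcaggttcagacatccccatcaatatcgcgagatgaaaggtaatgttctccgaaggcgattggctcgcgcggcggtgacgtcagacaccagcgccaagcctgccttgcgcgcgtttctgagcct
Snrpc: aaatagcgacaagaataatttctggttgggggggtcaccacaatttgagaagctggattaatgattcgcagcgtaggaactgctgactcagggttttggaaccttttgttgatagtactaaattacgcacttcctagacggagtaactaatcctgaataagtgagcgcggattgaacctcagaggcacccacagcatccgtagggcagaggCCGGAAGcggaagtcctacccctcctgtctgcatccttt
Snrnp70: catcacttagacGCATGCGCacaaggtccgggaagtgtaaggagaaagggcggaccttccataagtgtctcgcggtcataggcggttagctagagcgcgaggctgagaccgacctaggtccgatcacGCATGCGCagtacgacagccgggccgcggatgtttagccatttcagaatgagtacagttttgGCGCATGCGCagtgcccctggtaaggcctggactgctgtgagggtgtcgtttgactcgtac
Srsf5: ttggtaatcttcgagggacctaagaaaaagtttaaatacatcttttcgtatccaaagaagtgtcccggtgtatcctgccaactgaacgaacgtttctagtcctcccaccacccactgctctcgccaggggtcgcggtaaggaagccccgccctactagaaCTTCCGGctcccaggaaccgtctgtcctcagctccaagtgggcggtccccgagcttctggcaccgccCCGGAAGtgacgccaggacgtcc
The Snrpg and Snrpc windows each held 1 ETS match, and the Srsf5 window held 2. The Snrnp70 window held 4 NRF1 matches in 3 places, since 2 of them overlap on opposite strands. Of the 72 member windows, 23 (31.9%) held the ETS letters, beside 6.91% of all 32851 windows in the table, and 7 (9.72%) held the NRF1 letters, beside 2.26%. Letters of the Sp1 site, GGGCGG, were in 62.5% against 32.7%, and the cyclic AMP response element TGACGTCA in 4.17% against 1.55%. The CCAAT box (30.6% against 33.8%) and the TATA letters TATAAA (5.56% against 12.4%) were not more frequent. Member windows also held more CpG dinucleotides (median 19.5 against 6) and more G and C (median 60.4% against 52.4%), so these shares describe the windows and locate no binding. The windows of Magoh and Snrpe, both windows of U2af1 and 1 of 2 for Prpf3, also higher in experiment 2, held neither the ETS nor the NRF1 letters.

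Spliceosome probes were detected more often than probes at large on each of the 12 arrays, as the plot of detection shows. A probe counts as detected where the scanner software called it well above background. Of the 129 probes, 55 (42.6%) were detected on all 12 arrays, beside 14.2% of all probes, and 9 were detected on none. Detection of the members ranged from 51.9% in experiment 1, pair D, cell 1 to 91.5% in experiment 2, pair D, cell 1, and that of all probes from 21.9% to 78.7% in the same cells. Both probes for Sfrs3 (Srsf3), which encodes a small SR protein, were below background in every cell. The other probes detected nowhere were single probes for Snrpd3, Prpf39, Sf3b4, Prpf4b, Prpf6, Prpf8 and Sfrs11, each a gene with another probe that was detected. For these genes the choice of probe decides whether the transcript is seen.

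**Figure D1:**
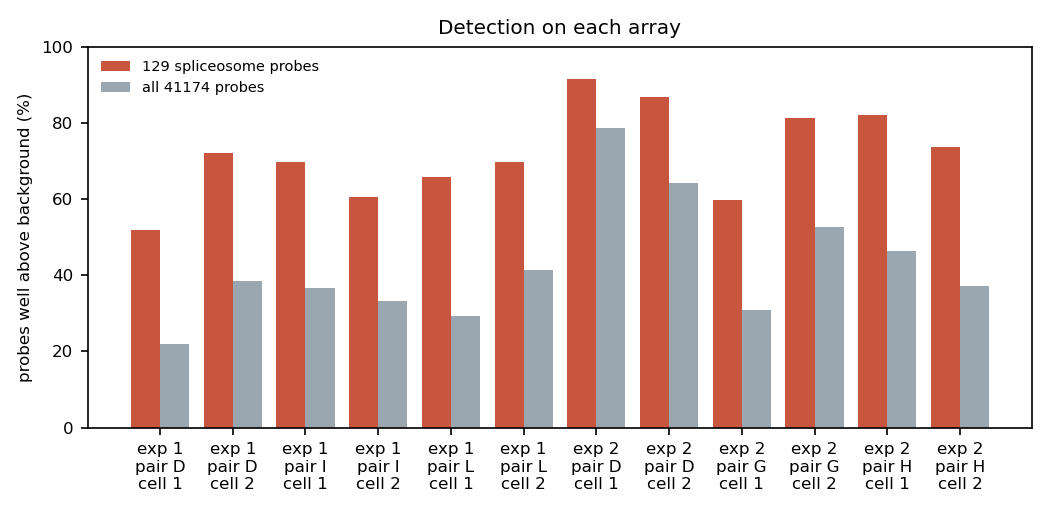
Percentage of probes well above background on each of the 12 arrays, for the 129 spliceosome probes (red) and all 41174 probes (grey). The red bar is the taller on each array, from 51.9% against 21.9% to 91.5% against 78.7%.

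The levels given below are log2 values of the scanner's processed signal after division by the 75th percentile of each array, so that 0 stands at that percentile. Signals under a common floor of -4.12 were raised to it, and a level at the floor is only an upper bound. A probe's levels can be set against each other across cells, not against those of another probe. Probes detected on at least 6 arrays were tested with limma, 97 of the 129 members among 16694 probes, and p-values were adjusted over all probes tested. One further member, a Snrpd1 probe, met this minimum and was left out because an outlier spot gave no value in 1 cell.

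Compared with experiment 1, 9 spliceosome probes for 9 genes were higher in experiment 2 and none was lower. They were Magoh and Rbm8a of the exon junction complex, Snrpg and Snrpe of the Sm ring, Snrp1c and Snrp70 of the U1 snRNP, U2af1 of U2AF, Prpf3 of the tri-snRNP and the SR protein gene Sfrs5. Their differences lay between 0.88 and 1.98 on the log2 scale, or 1.84-fold to 3.95-fold. The 9 make up 9.28% of the 97 tested members, beside 3.92% of all tested probes called higher and 4.12% called lower. Of all probes, 21.9% to 41.5% were detected on the arrays of experiment 1 and 30.9% to 78.7% on those of experiment 2. A set that no probe enters through 1 experiment alone is that of the 55 members detected on all 12 arrays. Among them the same 9 probes are 16.4%, beside 7.99% of the 5857 probes detected so. Of these 55, 42 had the higher mean in experiment 2 (76.4%, against 52.3%), with a median difference of 0.51 against 0.06. Without both cells of pair D of experiment 2 the median over the 97 fell from 0.37 to 0.05, against 0.19 and -0.04 over all tested probes, and 8 members were called. With the 75th percentile of each array taken over all probes, none of the 9 passed. Over 25 other settings the call was lost in 1 for Rbm8a and 2 for Snrp1c, but in 16 for Snrp70 and 18 for Snrpe. Under 4 other settings 1 member, Lsm10, was called lower in experiment 2.

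**Figure D2:**
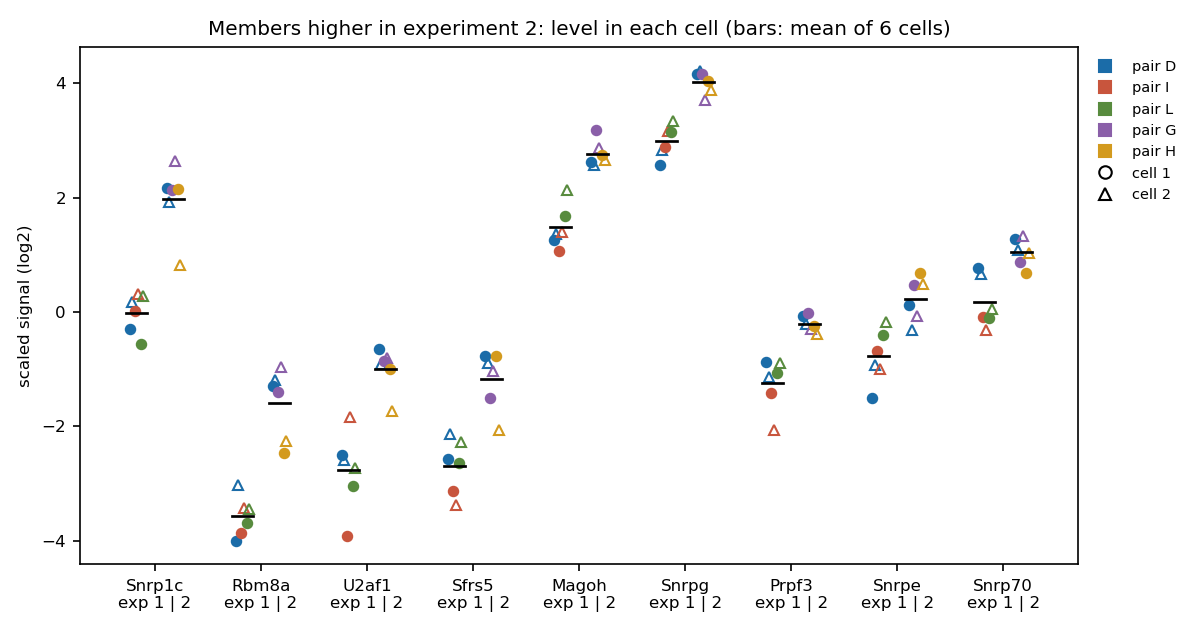
Scaled signal (log2) of the 9 members higher in experiment 2, in each of the 6 cells of experiment 1 (left of each gene) and experiment 2 (right); colours mark the blastomere pair, symbols the cell, bars the mean. The ranges are separate for all but Snrpe and Snrp70, where single cells overlap.

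Experiment and measurement cannot be told apart here: the arrays of experiment 1 carried the RNA in Cy5 and were scanned in 2 channels, those of experiment 2 in Cy3, and no slide held cells of both. Summed signals of some lists of marker genes for other cell types also differed. The summed scaled signal of 12 oviduct epithelium probes was 7.91 to 56.7 in the cells of experiment 1 and 0.688 to 2.31 in experiment 2. The sum of 16 stromal probes was 11.6 to 62.1 against 0.918 to 1.49, and that of 10 macrophage probes 4.75 to 226.2 against 0.574 to 0.937. Probes under the floor entered all sums given here at the floor value, so the low sums are upper bounds. The sums for 18 maternal oocyte probes overlapped, at 76.6 to 149.2 and 83.9 to 125.7. Detected probes numbered 8 to 10 of 12 for oviduct epithelium, 8 to 9 of 16 for stroma and 2 to 7 of 10 for macrophages in experiment 1, and 4 to 11, 4 to 14 and 1 to 8 in experiment 2. The sum of 19 cumulus and granulosa probes was 1.09 to 1.65 against 1.10 to 2.02, with 0 to 5 probes detected in experiment 1 and 2 to 15 in experiment 2, most in pair D, cell 1. Of this list Fshr, Kitl, Star and Tnfaip6 were below background in every cell, and the 4 tested probes had the higher mean in experiment 2 (median difference 0.47), none of them past the threshold. Sums for 12 probes of genes of the 2-cell activation wave were 10.1 to 24.98 in experiment 1 and 21.3 to 28.3 in experiment 2. Among the 11 tested, 10 had the higher mean in experiment 2, with a median difference of 0.63, and 5 were called higher. Called lower were 4 of 10 tested oviduct epithelium probes, 7 of 8 stromal, 1 of 5 macrophage and 1 of 16 maternal oocyte probes. Over all tested probes, 3.92% were called higher and 4.12% lower. The part of these signals in the differences was not tested.

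The exon junction complex held the largest share of changed probes, 2 of 3. Magoh encodes the partner of Rbm8a (Y14) in the core of this complex. The cells of experiment 1 had levels of 1.26 and 1.36 (pair D), 1.08 and 1.40 (pair I), and 1.69 and 2.14 (pair L), and those of experiment 2 had 2.62 and 2.56 (pair D), 3.19 and 2.87 (pair G), and 2.75 and 2.66 (pair H). No cell of experiment 1 reached the lowest cell of experiment 2, and the difference was 1.29 ± 0.21 (SE, n = 6 cells in each; limma adjusted p = 0.0035). Rbm8a, by its probe A_52_P355014, lay between -4.00 and -3.02 in experiment 1 (median -3.56) and between -2.46 and -0.95 in experiment 2 (median -1.35). The groups were separate, with a difference of 1.98 ± 0.32 (limma adjusted p = 0.0035). The second Rbm8a probe, A_52_P452578, went the other way by -0.06 and was detected on 8 arrays only, so the gene's difference rests on 1 probe. Magoh has a near-identical copy, Magohb, and whether the probe also binds its transcript was not tested.

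In the Sm ring, which encircles the U1, U2, U4 and U5 RNAs, each of the 8 tested probes had the higher mean in experiment 2, and 2 passed the test. Over all tested probes, 64.7% had the higher mean in experiment 2. The median difference of the role was 0.97. Snrpg encodes the ring's G protein. Its levels were 2.57, 2.84, 2.89, 3.16, 3.14 and 3.34 in experiment 1, in the order of pairs D, I and L, and 4.17, 4.23, 4.17, 3.72, 4.04 and 3.88 in experiment 2, in the order D, G and H. All cells of experiment 2 were the higher ones, by 1.04 ± 0.18 (limma adjusted p = 0.0051). Snrpe, the E protein, averaged -0.78 ± 0.47 (SD, n = 6) in experiment 1 and 0.23 ± 0.38 in experiment 2, a difference of 1.01 ± 0.28 (SE; limma adjusted p = 0.047). Its groups overlapped: pair L, cell 2 of experiment 1 stood at -0.17 and pair D, cell 2 of experiment 2 at -0.31. The bright Snrpf probe A_51_P255616 was higher in all cells of experiment 2 (-1.08 to -0.27 against -2.29 to -1.09), yet its difference of 0.93 ± 0.27 did not pass (limma adjusted p = 0.058). The second Snrpf probe differed by 1.48, the probes for Snrpd3 by 0.41 and 0.60, Snrpd2 by 0.50 and Snrpb by 1.05, none past the threshold.

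The U1 snRNP gave 2 changed probes among 10 tested, for 2 of its 3 specific proteins. Snrp1c, the U1 C protein that steadies the contact with the start of the intron, was at -0.29, 0.17, 0.03, 0.32, -0.56 and 0.28 in experiment 1 and at 2.18, 1.92, 2.13, 2.64, 2.16 and 0.82 in experiment 2. The cells of experiment 2 were all higher, with pair H, cell 2 nearest to experiment 1, and the difference was 1.98 ± 0.36 (limma adjusted p = 0.0065). Snrp70, the U1-70K protein, by probe A_51_P356144, differed by 0.88 ± 0.23 (limma adjusted p = 0.038). Its groups overlapped, because pair D of experiment 1 (0.78 and 0.67) stood above the other pairs of that experiment (-0.31 to 0.06) and at the level of pair H, cell 1 of experiment 2 (0.69). The second Snrp70 probe differed by -0.70 and did not pass, so the 2 probes disagree in direction. The bright probe for Snrpa, the U1 A protein, differed by only -0.02 ± 0.29 between the experiments. Its 3 dim probes were at or near the floor in pair I of experiment 1 and in pair H of experiment 2, with the exception of probe A_52_P681269 in pair H, cell 2 (-3.10).

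None of the 12 tested U2 snRNP probes passed, and the median difference was 0.20. This role holds the SF3a and SF3b subunits, which clamp the branch point, and the U2 A' and B'' proteins. The largest difference was that of Sf3a3, which ranged from -2.31 to -0.84 in experiment 1 and from -1.29 to 0.81 in experiment 2 (1.51 ± 0.52; limma adjusted p = 0.11). Sf3b2 was lower in every cell of experiment 2 (-4.12 to -2.83) than in any cell of experiment 1 (-2.74 to -1.62). Its difference of -0.93 ± 0.34 did not pass (limma adjusted p = 0.14). Sf3b1, the subunit that closes around the branch point, was seen only by dim probes, detected on 7 and 6 arrays.

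U2AF binds the polypyrimidine tract through U2af2 and the AG at the end of the intron through U2af1. U2af1, by probe A_52_P230947, was at -2.49, -2.59, -3.91, -1.84, -3.04 and -2.72 in experiment 1 and at -0.65, -0.90, -0.85, -0.81, -0.99 and -1.72 in experiment 2. The groups were separate and differed by 1.78 ± 0.42 (limma adjusted p = 0.023), and the second U2af1 probe differed by 1.20 in the same direction without passing. The probes for U2af2 differed by 0.25 and -0.36, and U2af1l4 by -0.38.

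No Lsm probe passed. The Lsm2 to Lsm8 ring binds the U6 RNA, and its 9 tested probes had a median difference of 0.29. In experiment 2, 7 were higher (77.8%, beside 64.7% of all tested probes). The 4 probes for Lsm6, which is part of this ring, differed from -0.58 to 1.01. Of the Lsm proteins that work outside the spliceosome, Lsm10, a part of the U7 particle that cuts histone messages, was the only member besides Sf3b2 with every cell of experiment 1 above every cell of experiment 2. It ranged from 0.72 to 2.68 in experiment 1 and from -0.47 to 0.71 in experiment 2, and its difference of -1.39 ± 0.40 did not pass (limma adjusted p = 0.056). It passed with normexp, with quantile normalization, among probes detected on all arrays and without pair L, cell 2 of experiment 1 (limma adjusted p = 0.028, 0.043, 0.018 and 0.027). Such complete separation was found for 2 of 97 members with experiment 1 above, beside 3.97% of all tested probes, and for 8 with experiment 2 above, beside 3.70%. The 8 were the called members other than Snrpe and Snrp70, and Snrpf.

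Among the Prp proteins of the tri-snRNP and later steps, 1 of 14 tested probes passed. The mean was higher in experiment 2 for 12 (85.7%, beside 64.7% of all tested probes). Prpf3, a U4/U6 protein, was at -0.87, -1.14, -1.42, -2.06, -1.06 and -0.90 in experiment 1 and at -0.08, -0.20, -0.02, -0.30, -0.25 and -0.38 in experiment 2. The cells of experiment 2 lay close together, with an SD of 0.13 against 0.45, and the difference was 1.04 ± 0.23 (limma adjusted p = 0.015). Prpf4, its binding partner, differed by 1.35 ± 0.64 without passing, since it varied from -4.12 to -0.77 within experiment 1 and from -2.50 to -0.02 within experiment 2. Prpf8, the central protein of U5, was detected on all arrays by probe A_51_P168665 but was at the floor in pair H and pair G, cell 1 of experiment 2 and in pair I, cell 2 of experiment 1. Its other probe was detected on none.

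Of the 14 tested SR protein probes 1 passed. Sfrs5 (Srsf5), by probe A_51_P432892, was at -2.58, -2.13, -3.12, -3.37, -2.64 and -2.27 in experiment 1 and at -0.76, -0.89, -1.51, -1.03, -0.77 and -2.07 in experiment 2. The lowest cell of experiment 2, pair H, cell 2, stood just above the highest of experiment 1, and the difference was 1.51 ± 0.34 (limma adjusted p = 0.019). The second Sfrs5 probe, detected on 7 arrays, differed by 0.16 and did not pass. Probes of the same SR gene spread widely: the 4 Sfrs2 probes differed from -0.71 to 1.02 and the 2 Sfrs4 probes by -1.30 and 0.41. The 15 tested probes for SR-related proteins, such as Sfrs10 (Tra2b), ran from -0.20 to 0.89 with a median of 0.16, and none passed. Over the 24 genes with more than 1 tested probe, none had 2 probes past the threshold.

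**Figure D3:**
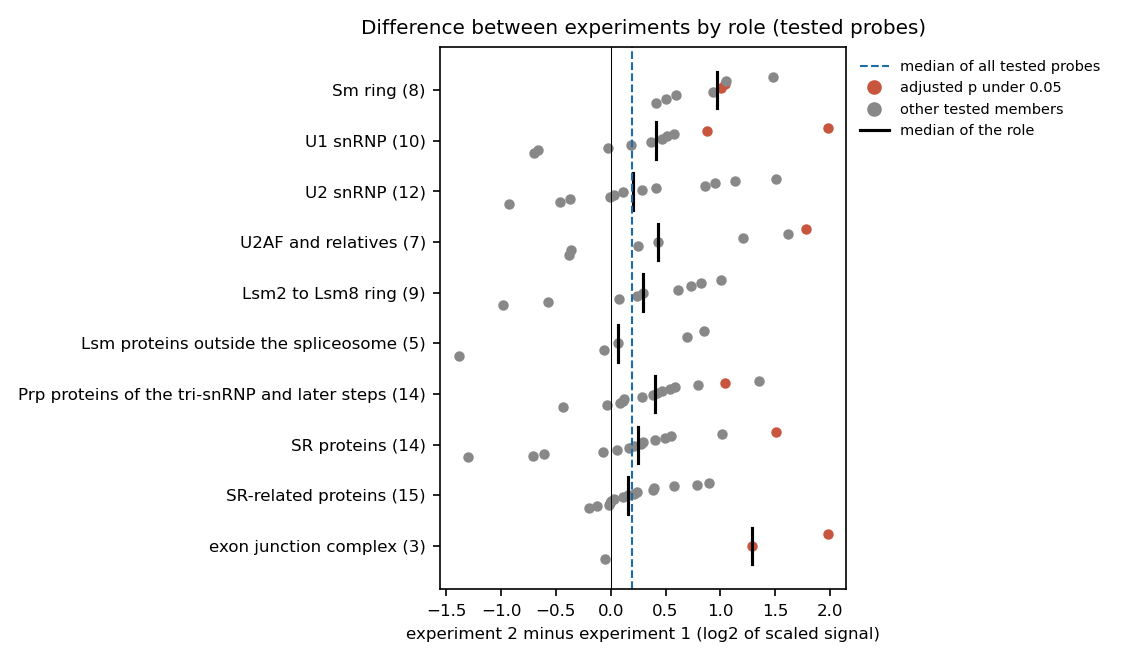
Difference between the experiments (log2) for the 97 tested members, by role with the number of tested probes; red points passed the adjusted p of 0.05, bars are role medians and the dashed line is the median of all tested probes (0.19). The Sm ring and the exon junction complex have the highest medians (0.97 and 1.29).

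Genes of the wider splicing machinery were taken from 8 lists, chosen with earlier results of these data known. Their calls are given list by list, and 3.92% of all tested probes were called higher and 4.12% lower. With the 75th percentile taken over all probes, 19 of the 155 calls over the whole array were upward. The calls of the lists were not followed under that or any other setting. Genes for snRNP assembly, which load the Sm ring and bring particles to the nucleus, gave 5 calls of 17 tested probes, all higher in experiment 2. Coil, the Cajal body protein, stood at -0.79 ± 0.52 (SD, n = 6) and 1.47 ± 0.44, a difference of 2.26 (limma adjusted p = 0.0029). Both probes for Tgs1, which caps small nuclear RNAs, differed by 2.42 and 1.44 (limma adjusted p = 0.0056 and 0.027), and Snupn, an import adaptor for snRNPs, by 1.93 (limma adjusted p = 0.011). The list of hnRNPs and other splicing regulators gave 11 higher and 1 lower of 59. Rbm5, Hnrnpa1, Hnrnpf and Khsrp differed by 1.53, 1.17, 1.16 and -1.47 (limma adjusted p = 0.015, 0.030, 0.0070 and 0.028). Snapc3, a subunit of the complex that starts small nuclear RNA genes, differed by 3.17 (limma adjusted p = 0.0041) and was the single call of 14 in its list. Among other snRNP proteins Snu13 was higher by 1.48 and Sart1 lower by 0.76 (limma adjusted p = 0.0090 and 0.019) of 37 tested. The Prp19 and catalytic list gave 3 of 40, with Cdc5l at 0.99 (limma adjusted p = 0.011). The list of exon junction and export genes gave 2 of 25, among them Eif4a3 at 1.15 (limma adjusted p = 0.028). The minor spliceosome gave 1 of 4, Rnpc3 at 1.40 (limma adjusted p = 0.0082), and the SR protein kinases none of 11.

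Between embryos of the same experiment, 1 spliceosome probe of 97 differed, beside 1.40% of all tested probes. At an unadjusted p under 0.05 there were 32 (33.0%), beside 29.8%. The probe that passed was A_51_P147712 for Sfrs14 (now Sugp2), an SR-related protein (limma adjusted p = 0.046), and it lost the call in 17 of 25 other settings. In experiment 1 pair L had levels of -2.41 and -2.74, pair D had -4.12 and -3.86, and pair I was at the floor. In experiment 2 the cells of pair D had levels of -2.43 and -2.81, pair G had -4.12 and -3.60, and pair H was at the floor. Twin cells were alike, and pair L and pair D of experiment 2 stood above the rest. Pair D of experiment 2 also had the highest detection, with 78.7% and 64.3% of all probes in its cells. In the cells of pair L 29.4% and 41.5% were detected, the second being the highest share of experiment 1. The cells of pair I, where the Sfrs14 probe was at the floor, had 36.6% and 33.3%. Over all tested probes, pair L had the highest mean of experiment 1 for 50.2%. The part of detection in the difference was not tested.

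The same order was frequent among dim members, as it was among dim probes of the whole array. Of the 42 tested members that were not detected on all arrays, 35 had their highest mean in experiment 2 in pair D (83.3%, beside 72.5% of all such probes), and 26 had their highest in experiment 1 in pair L (61.9%, beside 54.4%). Over the 55 members detected on all arrays the counts were 23 (41.8%, beside 43.7%) and 31 (56.4%, beside 42.6%). Snrpb, the B protein of the Sm ring, had levels of -1.64 and -1.66 in the cells of pair D of experiment 2 and of -2.52 and -2.66 in pair G, with pair H at the floor, a range of 5.56-fold between embryo means (limma adjusted p = 0.056). Lsm8, Prpf40b, the second Rbm8a probe and probe A_52_P396974 for Sfrs8 (Sfswap) were likewise highest in pair D and at the floor in pair H (limma adjusted p = 0.082, 0.076, 0.053 and 0.059). Since the low side is at the floor, these ranges are lower bounds.

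Among the brighter SR protein probes, those for Sfrs2 and Sfrs7 also had their highest mean in pair L of experiment 1. Sfrs2 (Srsf2, also SC35), by probe A_51_P262437, had levels of 1.03 and 0.81 (pair D), 0.09 and 0.36 (pair I), and 0.94 and 1.43 (pair L) in experiment 1. The cells of experiment 2 had 1.01 and 1.27 (pair D), 0.19 and 0.07 (pair G), and 0.71 and 1.01 (pair H). The cells of pairs I and G were the lowest of their experiments, by 1.94-fold and 2.01-fold against the highest pair (limma adjusted p = 0.076). A second probe, A_51_P262432, gave the same lowest pairs, with 2.06-fold and 1.92-fold, while the 2 dimmer Sfrs2 probes were highest in pair I of experiment 1 and lowest in pair D of that experiment and in pair H. The 4 probes thus disagree. Both bright Sfrs7 (Srsf7) probes were highest in pair L of experiment 1, at 0.92 and 1.73 for the brighter and -1.43 and -0.55 for the other, with ranges of 5.35-fold and 4.96-fold between embryo means (limma adjusted p = 0.11 for both).

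The 2 tested Sfrs4 probes gave different patterns. Probe A_52_P550780 was at -0.84 and 0.63 in pair D of experiment 1, against the floor in both cells of pair I and -4.12 and -2.25 in pair L, and between -4.12 and -3.18 in experiment 2. The range in experiment 1 was 16.2-fold, with the low side at the floor (limma adjusted p = 0.067). The other Sfrs4 probe, A_51_P226093, lay between -2.25 and -0.86 in all 12 cells and did not set pair D apart. The probes target the same gene name, so the difference cannot be assigned to the gene as a whole.

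**Figure D4:**
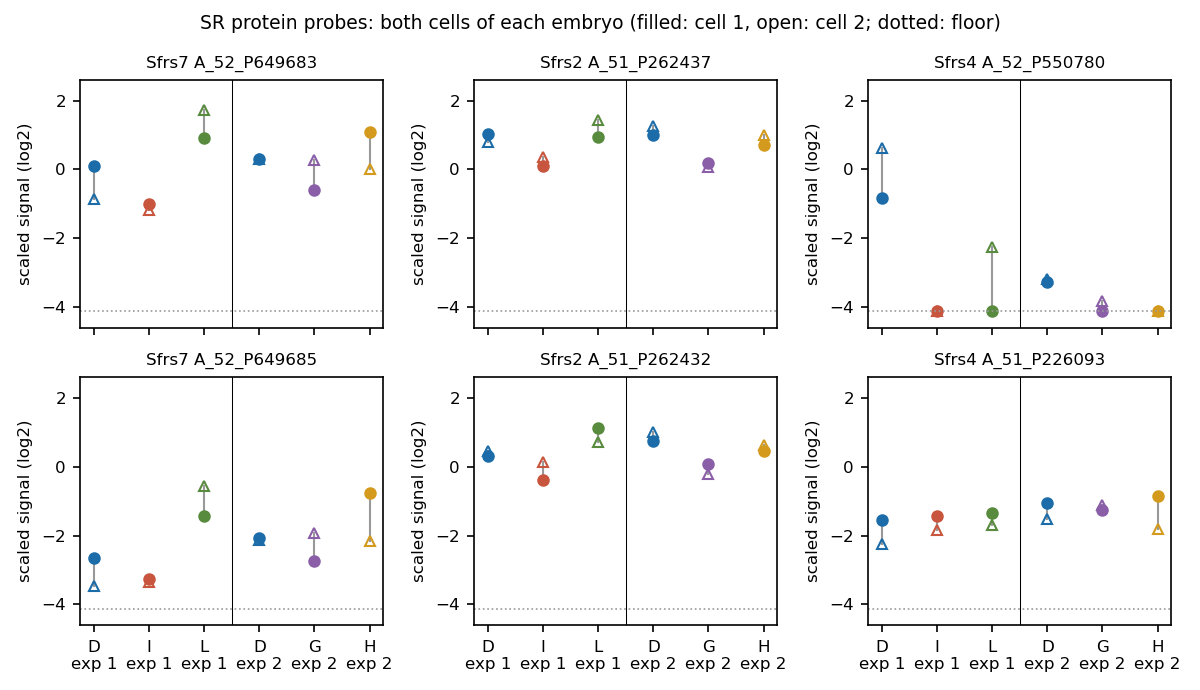
Scaled signal (log2) of 2 probes each for Sfrs7, Sfrs2 and Sfrs4 in both cells of each embryo, experiment 1 left of the vertical line; the dotted line is the floor. The 2 probes plotted share a pattern for Sfrs7 and for Sfrs2, whose 2 dimmer probes are not shown. For Sfrs4 the upper probe is high in pair D of experiment 1 alone, and the lower one does not set that pair apart.

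Twin blastomeres were on average nearer to each other over the spliceosome probes than cells of different embryos, but not in every pair. The root-mean-square log2 difference over the 97 probes averaged 0.786 ± 0.171 (SD, n = 6 pairs) between twins and 1.03 ± 0.176 over the 24 pairs of cells from different embryos of an experiment. These 24 share cells and are not independent, so the spread is a description. Over all tested probes the values were 0.786 ± 0.141 and 0.963 ± 0.155. The twin values were 0.760, 0.757 and 1.07 in pairs D, I and L of experiment 1 and 0.577, 0.872 and 0.678 in pairs D, G and H of experiment 2. Pair L was the least alike, and its value lay above the mean between different embryos of experiment 1 (1.02). Both cells of pair L were nearer to a cell of another embryo: cell 1 to pair I, cell 1 (0.850), and cell 2 to pair D, cell 2 (1.01). The same held in pair G, for cell 1 with pair H, cell 2 (0.767) and cell 2 with pair D, cell 1 (0.740). In pairs D and I of experiment 1 and pairs D and H of experiment 2, each cell was nearest to its twin. Twins always shared a slide, while 16 of the 24 other pairs were on different slides. On the slides that held 2 embryos (I with L, G with H), the mean was 0.844 ± 0.171 for the 4 pairs of twins and 0.999 ± 0.211 for the 8 pairs of cells from different embryos.

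**Figure D5:**
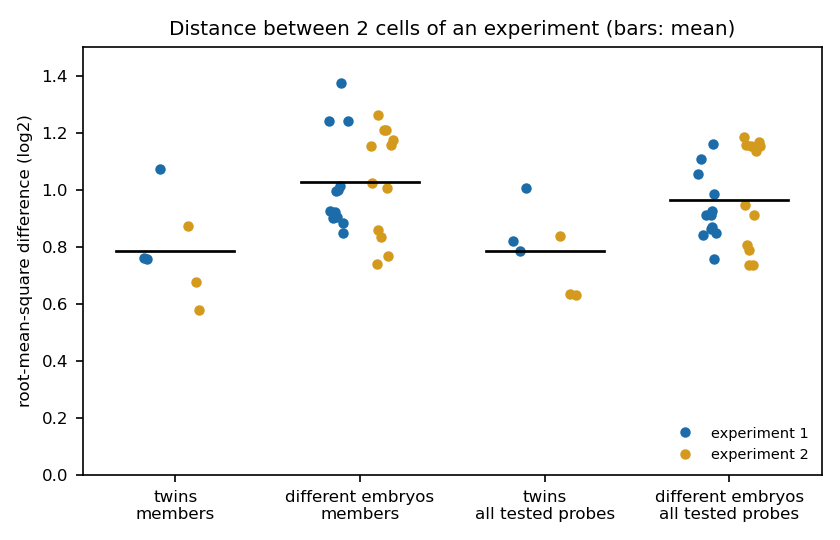
Root-mean-square log2 difference between 2 cells of an experiment, for twins (6 pairs) and cells of different embryos (24 pairs), over the 97 tested members (left) and all 16694 tested probes (right); bars are means. Twins average 0.786 in both sets, different embryos 1.03 and 0.963.

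Individual members differed widely in how alike twins were. Among the 55 probes detected on all arrays, the smallest median twin difference was that of Snrp70 probe A_51_P356144, at 0.20 on the log2 scale with single pairs from 0.11 to 0.45. Magoh, Snrpa probe A_51_P389978 and Prpf38a, a tri-snRNP protein, followed with 0.21 each. Prpf8 had 0.21 too, with 1 pair at the floor in both cells and others apart by up to 1.94. The largest was Lsm6 probe A_52_P422755, with a median of 1.75 and single pairs from 0.50 to 2.66, the last with 1 cell at the floor. The other 3 Lsm6 probes were also among the 10 largest, with medians of 1.12, 0.92 and 0.82. Further large values were found for the SF3a subunits Sf3a1 (1.26) and Sf3a3 (1.08), the tri-snRNP bridge Prpf6 (1.14), Sfrs2 probe A_52_P482355 (0.82) and both bright Sfrs7 probes (0.85 and 0.80). The median over the 55 was 0.51, beside 0.48 over all probes detected on all arrays.

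Cell 2 and cell 1 of the pairs did not differ for any member. In limma with the embryo as a block no probe of the array passed, and 6 members (6.19%) had an unadjusted p under 0.05, beside 4.41% of all tested probes. The smallest was again Lsm6 probe A_52_P422755, higher in cell 2 in 6 of 6 pairs by 1.32, 2.66, 2.18, 0.68, 0.50 and 2.20, a mean of 1.59 ± 0.33 (SE; limma adjusted p = 0.67). Cell 1 was at the floor in pair I of experiment 1 and pair H of experiment 2, so 2.66 and 2.20 are lower bounds. Of the other Lsm6 probes, A_52_P593268 and A_52_P655743 were each higher in cell 2 in 4 of 6 pairs, by 0.71 and 0.53, and A_51_P152802 was lower in 4 of 6. Rbm8a probe A_52_P355014 was higher in cell 2 in 6 of 6 pairs by 0.40 ± 0.14, Snrpa probe A_52_P681269 in 5 of 6 by 0.69 ± 0.23, and Sfrs4 probe A_51_P226093 was lower in 5 of 6 by -0.46 ± 0.16 (limma adjusted p = 0.67 for each). With another scaling, the 75th percentile taken over all probes, the Rbm8a difference turned to -0.047.

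The difference between cells 2 and 1 was also compared between the experiments, as an interaction term. No member and no other probe passed, and 2 members had an unadjusted p under 0.05, beside 5.27% of all tested probes. For Sfrs2ip (Scaf11) probe A_51_P302507 cell 2 was higher by 1.15, 0.30 and 1.10 in experiment 1 and differed by -0.14, 0.02 and -0.32 in experiment 2 (interaction -0.998 ± 0.31; limma adjusted p = 0.91). For Lsm4 it was lower by 1.04, 0.78 and 1.40 in experiment 1, and the differences in experiment 2 were 1.08, 0 and -0.32, where 0 stands for a pair with both cells at the floor (interaction 1.33 ± 0.43; limma adjusted p = 0.91). U2af1l4 and Magoh followed, with interactions of -0.64 and -0.45 (limma adjusted p = 0.99 and 1.00).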

How the data were processed

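Intensity was measured in 12 single blastomeres on Agilent whole mouse genome arrays, 1 array a cell. Per the file headers, the authors extracted intensities with Feature Extraction 9.1.3.1; the processed signals are background-subtracted. The labels name Cy3, yet the RNA of experiment 1 lies in Cy5. The authors' deposited value table, also intensity, served as an alternative.

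Here outlier spots were removed, spots averaged per probe, and signals divided by the array's 75th percentile (taken over 5857 probes, those detected in all cells), floored at -4.12 and taken as log2. Of the probes, 16712 were detected on at least 6 arrays and 16694 had values throughout. limma 3.58.1 in R 4.3.3 fitted embryos, cell number (embryo as a block), their interaction and experiment (embryo as a random block, correlation 0.350), with Benjamini-Hochberg adjustment, tested on simulated data. Array number limits precision.

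Members and lists were chosen with earlier results of these data known. Statistics are given for the 8 (embryo) or 4 (cell, interaction) smallest p, up to 10 passing members a direction (experiment), and the 10 largest and 5 smallest twin differences; others by role. Of the member probes, 96 were named by accession in the GRCm38.p6 gene table.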

Additional observations from a re-analysis of the deposited data

Results flagged for a closer look

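Among the 9 members higher in experiment 2, the spread over the 6 cells of an experiment was checked for a single cell apart from the rest, 18 checks in all. In 1 of them a cell stood apart: U2af1 probe A_52_P230947 was at -1.72 in pair H, cell 2 of experiment 2, while the other cells of that experiment lay between -0.99 and -0.65. Chance gives such a gap in about 1 in 20 groups. The same cell was also the lowest of experiment 2 for Snrp1c (0.82), Sfrs5 (-2.07) and Prpf3 (-0.38).

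The Cy3 channel of the experiment 1 arrays was not used. In it 1 of the 129 spliceosome probes was well above background on 1 array: Sfrs6 probe A_52_P543824 in pair D, cell 2, with a processed signal of 14.6, beside 11.9 in the Cy5 channel that held the RNA, where it was not well above background.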

How the results depend on the processing

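The count of members called higher or lower between experiments was 9 and became 0 with the 75th percentile over all probes, 4 with the deposited table, 4 with embryo means, 1 with a floor per array, 2 with a lower floor, 5 with no filter, 15 with normexp, 16 with quantile normalization and 13 on probes detected in all cells (1 of them lower in each of these), and 5 to 11 without each cell in turn, lowest without pair L, cell 1 of experiment 1 or pair G, cell 2 of experiment 2. Over 25 settings the call was lost in 4 for Magoh, 5 for Prpf3 and Snrpg, 7 for Sfrs5 and 8 for U2af1. A replicate block for cell number gave 7. Upward calls over all probes were 654 of 1341, against 19 of 155 with the percentile over all probes, 97 of 379 with a floor per array and 210 of 596 with a lower floor; that percentile moved the median of all probes from 0.19 to 0.00 and of members from 0.37 to 0.18. The embryo count was 1 and became 2 with the percentile over all probes, 0 with the replicate block, the deposited table, the lower floor, normexp, probes on all arrays, experiment 1 alone, slides with 2 embryos or without pair D of experiment 2 (the last chosen after seeing the data), 6 with experiment 2 alone, 9 with no filter and 18 with a floor per array; without each cell it was 0 to 19, highest without pair L, cell 1 of experiment 1. Cell number and interaction counts were 0 in every setting run. The twin distance of 0.786 became 0.600 with normexp, 1.26 with the deposited table, 1.35 with a lower floor and 1.14 with a floor per array. Distances between cells of different embryos were not recomputed, so whether twins stay the nearer on average under other settings was not tested. Rbm8a turned from 0.40 to -0.047 between cells 2 and 1 with the percentile over all probes. The causes were not tested. Same-numbered cells deviated together with correlations of -0.08 to 0.26 over 15 pairs of embryos, 3 of them over 0.1. Whether the number pairs cells across embryos was not tested. Detection limits the dim probes: 42 of 97 tested members were under background on some array.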
